A study of Mus musculus with 22 samples.

Results

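Explanted subcutaneous tissue was compared with the same kind of tissue left in the animal. The comparison took the 4 samples titled ex vivo shortened against the 7 titled in vivo shortened, 11 of the 22 samples of the series, chosen by their titles alone. The source was subcutaneous loose connective tissue from the trunk. The mice were C57BL/6 males of 19 to 24 g, with no genetic change or drug named, and the series held pieces of this tissue either stretched or shortened within each animal. The shortened pieces were the unstretched arm of both settings, so the groups here differed in whether the tissue was held inside or outside the body. Each sample came from a different animal, so n = 4 ex vivo and n = 7 in vivo. The labels give neither the culture medium nor the time a piece was held, which limits what the explants stand for.

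Loose connective tissue under the skin holds fibroblasts that make collagen, resident macrophages along small vessels, endothelial cells, nerve, fat cells and, beneath it, a thin sheet of skeletal muscle. A cut and explanted piece loses its blood supply and is wounded. In general, wounded tissue signals through NF-kB and AP-1 to cytokines that call in neutrophils and monocytes, and poorly perfused cells stabilise the transcription factor HIF, which switches on glucose uptake, glycolysis and lactate export.

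Gene expression was read on arrays as log2 signals of 22626 probes, 1 of which stood for each of 12393 genes. Sample medians ran from 6.85 to 6.90 ex vivo and from 7.29 to 7.42 in vivo, so the settings look normalized separately. Every change below is therefore a log2 difference, ex vivo minus in vivo, relative to the median difference of all probes, which was -0.38 in the deposited values, while signals of single samples are as deposited. Since each setting is also its own set of arrays, setting and array processing cannot be told apart. The 18 probes for control RNAs added during the array procedure lay between -0.05 and 0.93 on the same scale, with a median of 0.21. The 3' minus 5' signal of Gapdh, which grows as RNA degrades, was 0.05 to 0.17 ex vivo, 0.11 to 0.21 in animals 1 to 3 in vivo and 2.25 to 2.96 in animals 4 to 7 in vivo (exact two-sided permutation p = 0.0879, adjusted p = 0.176). The same difference for Actb was 0.74 to 0.98 ex vivo, 0.33 to 0.37 in animals 1 to 3 in vivo and 1.36 to 1.78 in animals 4 to 7 in vivo (exact two-sided permutation p = 0.579, adjusted p = 0.579). For Actb the explants lay between these sets of animals, so the pooled test cannot show whether RNA quality was equal. The ± beside a change is its standard error from limma, and the number of arrays limits their precision.

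The settings differed throughout the measured genes. Of 12393 genes 3723 (30.0%) were higher ex vivo and 4812 (38.8%) lower at an adjusted p under 0.05 (limma with Benjamini-Hochberg adjustment over all probes), and 67.3% of all probes were called. Because so many genes passed, calls of at least 2-fold are also counted: 1118 genes (9.02%) were higher and 1659 (13.4%) lower by that much. Higher genes made up 43.6% of the calls, and 20.3% in the deposited values with the settings not centred on each other, so genes with changes between 0 and 0.38 turn negative on that scale. The share of higher genes was 49.5% with each sample centred on its own median and 47.1% with the mean of all probes of a gene. Among called probes 7572 were higher and 7663 lower, so the balance of rises and falls depends on scaling and probe choice. At least 8-fold differences were seen for 116 higher and 120 lower genes. In 55.6% of genes the signals of the 4 ex vivo samples, put on the common scale, did not overlap those of the 7 in vivo samples. Against only in vivo animals 1 to 3, whose Gapdh 3' minus 5' signal was nearer that of the explants, 3807 genes were higher and 4494 lower, and against only animals 4 to 7, 3829 and 5235. The first principal component of the 11 samples held 76.2% of the variance. Correlations were 0.991 to 0.995 within the ex vivo group, 0.967 to 0.994 within the in vivo group and 0.904 to 0.924 between them.

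**Figure D1:**
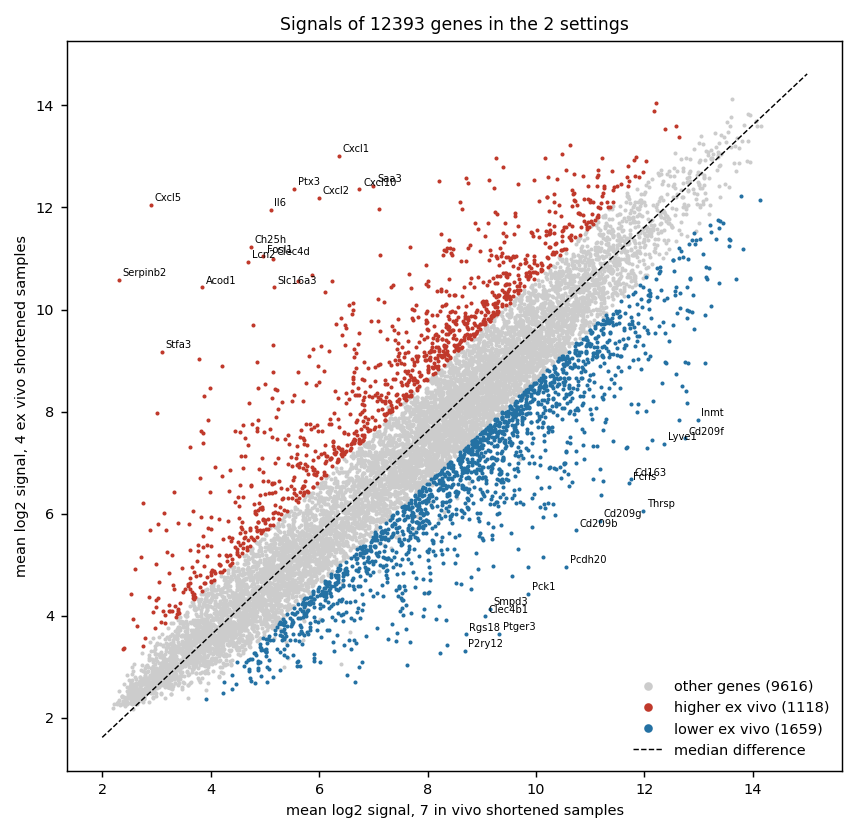
Mean log2 signal in the 7 in vivo shortened samples (x axis) against the 4 ex vivo shortened samples (y axis), 1 point per gene for 12393 genes. Coloured points are the 1118 genes higher and 1659 lower at an adjusted p under 0.05 and at least 2-fold relative to the median difference of -0.38, drawn as a dashed line; the labelled genes are the 15 largest changes in each direction.

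The chemokine Cxcl5, which draws neutrophils, had the largest change of all, 9.54 ± 0.10 (adjusted p = 2.33e-14). Its signals were 12.17, 12.08, 12.15 and 11.80 in the 4 explants, against a lowest, median and highest of 2.74, 2.85 and 3.15 in vivo. The in vivo signal lay near the bottom of the array's range, where it may be background, so that the fold of 745 is one of signals. The largest changes were picked among genes whose groups do not overlap, 55.6% of all genes. A gap between the groups thus follows from the choice. Cxcl1 rose by 7.03 ± 0.41, from in vivo signals of 5.67, 5.97 and 7.96 (lowest, median, highest) to 12.92, 13.02, 13.27 and 12.82, and Cxcl2 by 6.58 ± 0.40, from 4.87, 5.97 and 7.28 to 11.78, 11.84, 12.96 and 12.18. For Cxcl1 and Cxcl2, picked in the same way, the in vivo pieces themselves spread more widely than the explants. Of the 6 measured neutrophil-attracting CXC genes 4 were higher and 2 lower, where 30.0% and 38.8% of all genes were. Their median change was 4.26 against -0.09 over all genes. The lower ones were Pf4, a platelet chemokine that resident macrophages also express (-1.18 ± 0.19), and Cxcl15 (-0.43 ± 0.10).

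The promoter of Cxcl1 is shown because it carries, in the 300 bases around its start, the letters GGANTTNCC of an NF-kB site. It lies on chromosome 5 (chr5:90890995-90891294, plus strand, GRCm38.p6, RefSeq), and the capitals mark the match 70 bases before the start.
Cxcl1: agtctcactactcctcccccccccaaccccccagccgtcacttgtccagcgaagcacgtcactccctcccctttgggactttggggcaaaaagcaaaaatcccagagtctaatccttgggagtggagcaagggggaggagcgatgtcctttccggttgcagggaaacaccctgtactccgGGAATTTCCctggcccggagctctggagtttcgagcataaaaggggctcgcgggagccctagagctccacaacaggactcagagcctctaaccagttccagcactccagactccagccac
On either strand these letters occurred in the promoters of 2 of the 5 neutrophil-attracting CXC genes that RefSeq's table held, in 7 of 17 genes of the IL-1 and NF-kB list and in 5.01% of 9887 measured genes with a promoter. The lists were drawn up from known target genes, so these shares describe them only.

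Chemokines for monocytes and lymphocytes were higher too. Of 13 CC chemokines 9 were higher, 7 of them at least 2-fold, and 2 were lower (median 1.38). Over all genes these shares were 30.0%, 9.02% and 38.8%. Ccl2, the main monocyte attractant, read 12.93, 12.96, 13.11 and 12.88 in the explants and 8.602, 9.38 and 9.82 (lowest, median, highest) in vivo, a change of 4.09 ± 0.21. Ccl3 rose by 5.31 ± 0.30, Ccl7 by 3.72 ± 0.23 and Ccl5 by 4.12 ± 0.21. The 2 that fell, Ccl6 (-2.11 ± 0.15) and Ccl9 (-1.24 ± 0.17), are made constitutively by myeloid cells. Eotaxin, Ccl11, changed by 0.51 ± 0.14, and Ccl8, already bright in vivo, by 0.27 ± 0.12, which did not pass, though it did without ex vivo replicate 3 (0.38) or in vivo replicate 3 (0.33).

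Interleukin 6 stood at the head of the cytokines. Its signals were 11.43, 12.001, 12.50 and 11.89 ex vivo and 4.27, 4.86 and 6.44 (lowest, median, highest) in vivo, a change of 7.24 ± 0.37 (adjusted p = 6.24e-09). Il6 was also picked among genes whose groups do not overlap. Of 21 measured genes of the IL-6 family and other cytokines 14 were higher, all of them at least 2-fold, and 4 lower. Of all genes 30.0% were higher, 9.02% by 2-fold, and 38.8% lower. The colony-stimulating factors Csf3, for granulocytes, and Csf2, for granulocytes and macrophages, rose by 3.65 ± 0.24 and 3.54 ± 0.40. Lif, a relative of IL-6, rose by 2.20 ± 0.28, the alarmin Il33 by 2.38 ± 0.14 and Tnf by 1.66 ± 0.11. On the receiving side the oncostatin M receptor Osmr rose by 2.35 ± 0.11 and Socs3, the feedback inhibitor of this pathway, by 2.97 ± 0.24. The ligand-binding receptor chain for IL-6, Il6ra, fell by 1.71 on the log2 scale, and the anti-inflammatory cytokine Il10 fell too (-1.58 ± 0.38). The shared signalling chain Il6st was -0.23 ± 0.08 on its brightest probe and 0.96 over the mean of its probes, so its direction is unsettled.

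Genes of the IL-1 family and of NF-kB feedback were higher in 16 of 20 measured members, 13 of them at least 2-fold, and lower in 3. The shares over all genes were 30.0%, 9.02% and 38.8%. Il1rn, the receptor antagonist of IL-1, rose most of them (5.18 ± 0.12), from in vivo signals of 5.70, 5.90 and 6.06 (lowest, median, highest) to 10.76, 10.35, 11.01 and 10.59. The ligands themselves rose by 2.25 ± 0.26 (Il1b) and 2.07 ± 0.26 (Il1a), and Il1b reached signals of 7.13, 6.97, 8.58 and 7.33. Among inhibitors that NF-kB induces, Tnfaip3 rose by 2.53 ± 0.23, Nfkbiz by 2.71 ± 0.21 and Nfkbia, bright in both settings, by 0.63 ± 0.07. The adhesion genes Icam1 and Vcam1, which hold leukocytes, rose by 2.63 ± 0.24 and 2.39 ± 0.16. The decoy receptor Il1r2 fell by 2.17, and the IL-18 receptor chain Il18r1 by 1.87. Outside these lists 6 secreted or enzyme genes of the acute response were among the 15 largest rises: the pentraxin Ptx3 (7.20 ± 0.11), the iron-binding lipocalin Lcn2 (6.62 ± 0.17), serum amyloid Saa3 (5.81 ± 0.24), the itaconate-making enzyme Acod1 (6.97 ± 0.20), cholesterol 25-hydroxylase Ch25h (6.87 ± 0.13) and the cysteine protease inhibitor Stfa3 (6.45 ± 0.13). The myeloid lectin Clec4d rose by 6.22 ± 0.19.

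**Figure D2:**
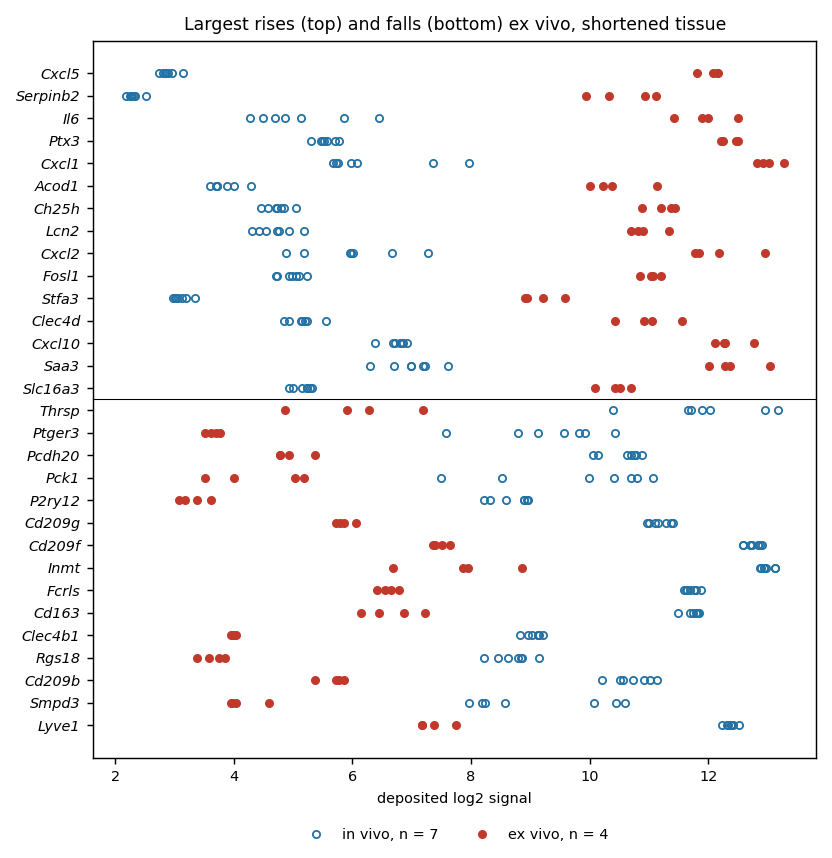
Deposited log2 signal (x axis) of the 15 genes with the largest rise and the 15 with the largest fall ex vivo, 1 row per gene; filled points are the 4 ex vivo shortened samples and open points the 7 in vivo shortened samples. The genes were chosen among those whose groups do not overlap, so the gap in each row follows from the choice; the in vivo points of Thrsp and Pck1 are among the most spread.

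All 22 measured interferon-induced genes were higher, 21 of them at least 2-fold, where 30.0% and 9.02% of all genes were. Their median change was 2.11. The group mean was 9.77 to 10.15 in vivo and 11.52 to 11.71 ex vivo, a narrow band in each setting. Ifit2, an inhibitor of viral translation, read 12.26, 12.47, 12.54 and 12.56 ex vivo and 9.28, 9.74 and 9.85 (lowest, median, highest) in vivo (3.18 ± 0.11). The related Ifit3 rose by 2.98 ± 0.09, the antiviral radical enzyme Rsad2 by 2.94 ± 0.09, and the GTPases Igtp and Iigp1 by 2.96 ± 0.14 and 2.13 ± 0.20. The transcription factors Irf7 and Irf1 rose by 2.08 ± 0.17 and 1.47 ± 0.17. Chemokines that interferon-gamma induces rose more than these genes. Cxcl10 changed by 6.000 ± 0.13, from 6.39, 6.80 and 6.92 in vivo (lowest, median, highest) to 12.11, 12.28, 12.78 and 12.26 ex vivo, and Cxcl9 and Cxcl11 by 5.25 ± 0.53 and 4.02 ± 0.23. Of 7 genes in that list 5 were higher, while the B-cell attractant Cxcl13 fell (-1.17 ± 0.20). Cxcl12 changed by 0.996 ± 0.10 on the brightest of its probes and by -1.08 on another, so its direction is unsettled.

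Of 15 prostaglandin genes 6 were higher and 5 lower (median -0.13), near the 30.0% and 38.8% of all genes, with both directions among synthases and among receptors. The inducible cyclooxygenase Ptgs2 rose by 4.69 ± 0.57, with signals of 12.24, 12.42, 12.93 and 12.49 ex vivo and 6.62, 7.99 and 10.06 (lowest, median, highest) in vivo. The in vivo pieces varied widely in this gene, yet none reached the explants. The phospholipase Pla2g4a, which frees the substrate, rose by 2.07 ± 0.15, prostaglandin E synthase, Ptges, by 2.16 ± 0.20, and prostacyclin synthase, Ptgis, by 1.49 ± 0.11. Thromboxane synthase, Tbxas1, an enzyme of platelets and macrophages, fell by 3.24, and the prostaglandin D synthase of haematopoietic cells, Hpgds, by 1.52. The prostacyclin receptor Ptgir rose by 3.20 ± 0.13, and the prostaglandin E receptors Ptger3 and Ptger4 fell, by 5.29 and 1.09. Ptger3 read 3.70, 3.62, 3.76 and 3.52 ex vivo and 7.58, 9.58 and 10.43 in vivo (lowest, median, highest), the second largest fall of any gene.

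Early transcription factors moved in both directions. Of 13 AP-1 and related bZIP genes 10 were higher and 1 lower. Fosl1, which encodes the late-acting FOS relative FRA-1, rose by 6.46 ± 0.12, from 4.71, 4.98 and 5.23 in vivo (lowest, median, highest) to 10.86, 11.20, 11.04 and 11.07. The small MAF gene Maff rose by 3.75 ± 0.13, Junb by 1.74 ± 0.32 and Atf3 by 1.52 ± 0.25. Fos itself changed by -0.06 ± 0.48 and did not pass, with signals of 11.10, 11.05, 11.71 and 10.88 ex vivo and 10.03, 11.81 and 12.94 in vivo, and Fosb fell by 1.76. Among 21 EGR, NR4A, KLF and other early genes 6 were higher and 9 lower, near the 30.0% and 38.8% of all genes. Ier3, an NF-kB target that limits cell death, rose by 4.26 ± 0.23 and Myc by 1.92 ± 0.15. Klf2, a factor of quiescent endothelium that flow induces, fell from 11.59, 11.87 and 12.23 (lowest, median, highest) to 7.99, 8.07, 8.37 and 8.18, and Klf4 fell by 1.08. Egr1 was -0.45 ± 0.15 and bright in both settings, and was not called without ex vivo replicate 4 (-0.34).

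Genes of the oxygen response and of glycolysis were higher in 28 of 30 measured members, 23 at least 2-fold, and lower in 1. Over all genes these shares were 30.0%, 9.02% and 38.8%. The median of the list was 1.65. The lactate exporter Slc16a3 rose by 5.66 ± 0.12, from in vivo signals of 4.93, 5.23 and 5.31 (lowest, median, highest) to 10.10, 10.52, 10.71 and 10.43. Egln3, an oxygen-sensing prolyl hydroxylase that HIF itself induces, read 9.96, 11.01, 10.79 and 10.48 against 5.26, 5.57 and 6.08 and rose by 5.33 ± 0.21. Groups did not overlap in 26 of the 30 genes, against 55.6% of all genes. Glucose uptake genes rose, Slc2a1 by 3.89 ± 0.17 and Slc2a3 by 2.15 ± 0.20. Along the glycolytic path hexokinase 2, Hk2, rose by 2.31 ± 0.28, phosphofructokinase Pfkl by 3.25 ± 0.37, Tpi1 by 1.98 ± 0.22, Pgam1 by 1.98 ± 0.09, Pkm by 2.57 ± 0.09 and Ldha by 1.11 ± 0.18. Other members are the lipid droplet gene Hilpda (4.32 ± 0.15), the oxidase Ero1a (3.79 ± 0.12), the angiogenic factor Vegfa (1.902 ± 0.20), haem oxygenase Hmox1 (3.79 ± 0.15), which NRF2 also induces, and the collagen-modifying Plod2 (3.50 ± 0.18). The one lower member was carbonic anhydrase Car9 (-0.43 ± 0.13), with means of 5.34 ± 0.27 ex vivo (SD, n = 4) and 6.15 ± 0.17 in vivo (SD, n = 7).

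The promoter of Slc16a3 is shown as that of the largest rise in this group, with capitals for the letters ACGTG, the core to which HIF binds. It lies on chromosome 11 (chr11:120948817-120949116, plus strand, GRCm38.p6, RefSeq), and its 2 matches begin 27 and 14 bases before the start.
Slc16a3: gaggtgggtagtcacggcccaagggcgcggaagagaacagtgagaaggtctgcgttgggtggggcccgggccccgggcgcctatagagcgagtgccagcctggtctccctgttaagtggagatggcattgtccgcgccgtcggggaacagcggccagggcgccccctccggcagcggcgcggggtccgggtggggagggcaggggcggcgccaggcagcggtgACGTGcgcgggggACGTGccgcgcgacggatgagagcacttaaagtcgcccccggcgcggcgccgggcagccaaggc
ACGTG on either strand was held by 20 of 26 promoters of the group and by 26.9% of measured genes with a promoter. It is also part of the E-box CACGTG.

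Respiratory chain and ATP synthase genes went the other way. Of 36 measured subunits 29 were lower and 1 higher, with a median of -0.53 and 5 falls of at least 2-fold. Of all genes 38.8% were lower, 13.4% by 2-fold, and 30.0% higher. The group mean was 10.31 to 10.54 ex vivo and 11.12 to 11.61 in vivo. The complex I subunit Ndufa1 fell by 1.17, the complex II subunit Sdhb by 1.12, and the complex IV subunits Cox8a and Cox6c by 1.15 and 1.13. The single rise was that of cytochrome c, Cycs (0.65 ± 0.18). Sdhd is left uncertain, since its probes gave -1.19 and 0.59. Muscle is rich in mitochondria. The muscle and fat marker lists both had medians below 0 (-1.70 and -1.997, described further on). The part of fat in this result was not tested. With skeletal muscle signal added to the fit as a covariate, the respiratory group had a median of -0.44, against -0.53 without it. The muscle mean ran from 5.17 to 5.82 ex vivo and from 5.44 to 11.13 in vivo. It thus partly tracked the setting, which limits this fit. Against only in vivo animals 1 to 3, whose Gapdh 3' minus 5' signal was nearer that of the explants, the respiratory median was -0.36. Against only animals 4 to 7 it was -0.63. The part of RNA quality was not tested.

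NRF2 targets, which detoxify oxidants, were higher in 18 of 22 members, 13 at least 2-fold, where 30.0% and 9.02% of all genes were. Their median was 1.59. The cystine importer Slc7a11 rose from in vivo signals of 3.73, 3.86 and 4.21 (lowest, median, highest) to 8.36, 8.32, 8.50 and 8.06, a change of 4.82 ± 0.11. The quinone reductase Nqo1 rose by 3.61 ± 0.16, sulfiredoxin, Srxn1, by 3.04 ± 0.10, the glutathione synthesis subunits Gclm and Gclc by 3.01 ± 0.15 and 2.14 ± 0.19, and thioredoxin reductase, Txnrd1, by 2.97 ± 0.10. Over the whole list the groups did not overlap in 17 of 22 members, against 55.6% of all genes. The metallothioneins Mt1 and Mt2 rose by 2.09 ± 0.10 and 2.22 ± 0.08. Lower were the glutathione transferase Gstm1 (-1.03 ± 0.09) and malic enzyme, Me1 (-0.82 ± 0.33), the latter abundant in fat and lost as a call without any one of 10 of the 11 samples (-0.91 to -0.65).

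Heat shock chaperones were higher in 19 of 22 members and lower in 1 (median 0.75), where 30.0% and 38.8% of all genes were. The inducible HSP70 genes Hspa1a and Hspa1b, near-identical neighbours that probes can hardly separate, rose by 3.62 ± 0.10 and 3.53 ± 0.12. Hspa1a read 11.27, 11.71, 11.68 and 11.23 in the explants and 8.14, 8.29 and 8.32 in vivo (lowest, median, highest). Hsph1 rose by 1.92 ± 0.28, the small chaperone Hspb1 by 1.85 ± 0.13 and Hsp90aa1 by 1.68 ± 0.13, while the constitutive Hspa8 moved by 0.44 ± 0.07.

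Promoters of Slc7a11 and Hspa1a are shown as those of the largest rises among NRF2 and heat shock genes. Capitals mark, on either strand, the antioxidant element letters TGANNNNGC in Slc7a11 (chr3:50443564-50443863, minus strand), beginning 97 and 45 bases before and 41 bases after the start, and the heat shock element letters GAANNTTC in Hspa1a (chr17:34972107-34972406, minus strand), beginning 104 bases before it. Both are from RefSeq on GRCm38.p6.
Slc7a11: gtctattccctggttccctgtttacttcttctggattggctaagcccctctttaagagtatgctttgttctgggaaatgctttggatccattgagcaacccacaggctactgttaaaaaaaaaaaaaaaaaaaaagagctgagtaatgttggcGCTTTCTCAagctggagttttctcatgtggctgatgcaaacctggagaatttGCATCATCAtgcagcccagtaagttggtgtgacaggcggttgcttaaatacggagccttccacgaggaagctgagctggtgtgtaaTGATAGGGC
Hspa1a: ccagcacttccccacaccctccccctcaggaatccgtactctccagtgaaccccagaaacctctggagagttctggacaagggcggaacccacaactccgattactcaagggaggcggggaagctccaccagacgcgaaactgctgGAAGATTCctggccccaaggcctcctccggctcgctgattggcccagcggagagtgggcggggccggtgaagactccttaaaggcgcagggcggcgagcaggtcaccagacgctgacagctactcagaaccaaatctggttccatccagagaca
The antioxidant letters, which are short of fixed positions, were held by 12 of 19 NRF2 list promoters and by 47.3% of measured genes with a promoter. The heat shock letters were held by 10 of 17 chaperone promoters and by 7.56% of measured genes. Promoters chosen by the same rule for Il1rn and Ifit2 held no match of the NF-kB letters and of the interferon letters GAAANNGAA. The latter were held by 10 of 18 interferon list promoters and 8.63% of measured genes. AP-1 letters, TGANTCA, were held by 0 of 11 promoters of the AP-1 list and 7.69% of measured genes, and the CRE letters TGACGTCA by 1 of 24 promoters of the unfolded protein response list and 2.99% of measured genes.

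The unfolded protein response of the endoplasmic reticulum was higher in 22 of 27 members, 15 at least 2-fold, and lower in 3. Over all genes these shares were 30.0%, 9.02% and 38.8%. Its stress factor Ddit3 (CHOP) rose by 2.41 ± 0.19, with signals of 10.04, 11.12, 10.14 and 10.17 against 8.04, 8.35 and 8.69 in vivo (lowest, median, highest). The glutathione-degrading Chac1 rose by 2.498 ± 0.36, Trib3 by 1.98 ± 0.19, the secreted stress proteins Creld2 and Manf by 2.49 ± 0.20 and 1.996 ± 0.16, and the chaperone Hspa5 (BiP) by 1.40 ± 0.08. Xbp1 and Calr, bright in both settings, moved by 0.24 ± 0.06 and 0.08 ± 0.06 on their brightest probes, of which Calr did not pass. Its other probes, also bright, gave 0.59 ± 0.07 and 0.65 ± 0.07 and were called. Xbp1 was -0.07 over the mean of its probes, so its direction is unsettled. Genes of amino acid supply that ATF4 serves went both ways, 12 of 21 higher and 5 lower, against the same 30.0% and 38.8% of all genes. The one-carbon enzymes Shmt2 and Mthfd2 rose by 2.91 ± 0.12 and 2.45 ± 0.12 and the transporter Slc7a5 by 2.18 ± 0.11, while the glutamine transporter Slc1a5 fell by 1.502 and the mTOR inhibitor Ddit4 by 1.56.

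Genes that build ribosomes were higher in 22 of 24 members, with a median of 0.84. This and the next counts are to be read against the 30.0% higher and 38.8% lower of all genes. The RNA helicase Ddx21 rose by 1.64 ± 0.10, Gnl3 by 1.52 ± 0.11 and nucleolin, Ncl, by 1.07 ± 0.07. Proteasome subunits were higher in 24 of 31 (median 0.61), such as Psmc6 (1.21 ± 0.09) and Psma5 (1.16 ± 0.09). The 26 ribosomal protein genes moved little, with 16 higher and 3 lower but a median of only 0.17 and no change of 2-fold. That median was -0.22 where the settings were not centred on each other. Cell cycle genes were lower in 15 of 26 and higher in 6, against 38.8% and 30.0% of all genes. The mitotic genes Top2a and Mki67 fell by 2.18 and 1.91 and the nucleotide reductase subunit Rrm2 by 1.77, from in vivo means that were already low (6.71 ± 0.29, SD, n = 7, for Top2a). The inhibitor Cdkn1a (p21) rose by 2.44 ± 0.27, with 11.77, 12.35, 12.23 and 12.14 against 9.26, 10.20 and 10.77 in vivo (lowest, median, highest).

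**Figure D3:**
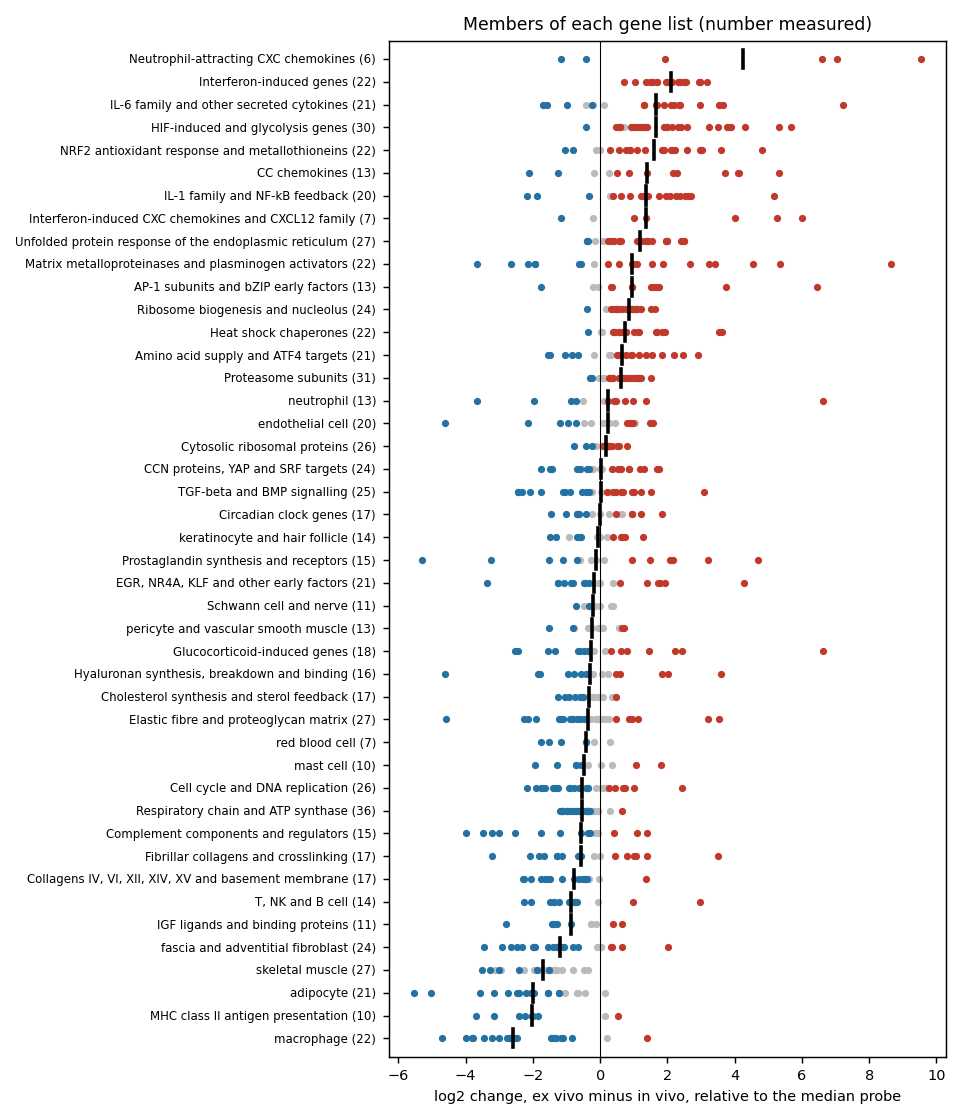
Log2 change, ex vivo minus in vivo shortened and relative to the median of all probes (x axis), of the measured members of the 44 gene lists, 1 row per list in order of the median, which is a black bar; coloured points passed the adjusted p of 0.05 and grey points did not. Neutrophil-attracting chemokines and interferon-induced genes stand at the top and macrophage, class II and adipocyte genes at the bottom.

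Of 22 genes of matrix-degrading enzymes and their inhibitors 14 were higher and 7 lower, against 30.0% and 38.8% of all genes. Serpinb2, an inhibitor of plasminogen activators, rose from 2.18, 2.27 and 2.51 (lowest, median, highest) to 11.13, 10.32, 10.93 and 9.94, a change of 8.66 ± 0.19 and the second largest of all genes. Among proteases collagenase 3, Mmp13, rose by 5.36 ± 0.31, stromelysin 1, Mmp3, by 1.53 ± 0.12, Mmp12 by 3.24 ± 0.12, and the aggrecanase Adamts4 by 4.54 ± 0.19. The receptor of urokinase, Plaur, rose by 1.87 ± 0.11, but the probes of urokinase itself, Plau, disagreed (-0.57 and 0.63). Gelatinase B, Mmp9, which myeloid cells make, fell by 3.67, with 6.14, 5.85, 6.75 and 5.73 ex vivo and 9.80, 10.14 and 10.54 in vivo (lowest, median, highest). The inhibitors parted company: Timp1 rose by 3.41 ± 0.13, while Timp2 and Timp3 fell by 1.94 each. Timp4 was -2.66 ± 0.86, and -2.30 (limma, adjusted p = 0.0555) without ex vivo replicate 1.

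Structural matrix genes were compared with the 38.8% of all genes that were lower and the 30.0% that were higher. Of 17 fibrillar collagen and crosslinking genes 9 were lower and 6 higher, of 17 basement membrane and minor collagen genes 14 lower and 1 higher, and of 27 elastic fibre and proteoglycan genes 13 lower and 6 higher. Col5a1, which sets collagen fibril diameter, fell from 11.58, 11.74 and 11.91 (lowest, median, highest) to 8.40, 8.24, 8.27 and 7.72, a change of -3.22 ± 0.12. Col1a1 fell by 1.27 and Col3a1 by 0.58 on their brightest probes, which lie near the top of the range, and the changes on dimmer probes of the same genes were -2.497 and -2.17. The collagen VI genes fell, Col6a2 by 2.27, Col6a1 by 1.76 and Col6a3 by 0.42. The laminin subunit Lama2 fell by 2.30, the small proteoglycan asporin, Aspn, by 4.59 and osteoglycin, Ogn, by 2.25. Fibronectin, Fn1, fell by 1.17. Among the 6 rises in the elastic fibre and proteoglycan list the largest were tenascin C, Tnc, by 3.54 ± 0.15, thrombospondin 1, Thbs1, by 3.22 ± 0.21 and versican, Vcan, by 1.11 ± 0.12. Collagen XII, Col12a1, was the single riser of its list (1.37 ± 0.18). The crosslinking enzymes Lox and Plod2 rose by 1.001 ± 0.18 and 3.50 ± 0.18, and Loxl1 fell by 1.82.

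Hyaluronan, TGF-beta and YAP genes also went both ways, with shares to be read against the same 30.0% higher and 38.8% lower. Hyaluronan genes gave 5 of 16 higher and 7 lower. Tnfaip6, which loads proteins onto hyaluronan, rose by 3.59 ± 0.15, the synthase Has1 by 2.02 ± 0.25 and the receptor Cd44 by 1.85 ± 0.12, while Has2 was -0.37 ± 0.31 and not called, except without ex vivo replicate 3 (-0.77). Of 25 TGF-beta and BMP genes 11 were higher and 11 lower, with Tgfb2 and Tgfb3 falling by 2.08 and 1.75, Bmp4 by 2.46, its feedback inhibitor Smad6 by 2.34, and Tgif1, a repressor of SMADs, rising by 3.07 ± 0.13. IGF genes were lower in 6 of 11. Igf1 fell from 10.51, 10.87 and 11.22 (lowest, median, highest) to 7.82, 7.97, 7.23 and 7.59 (-2.81 ± 0.17), and Igfbp3 to Igfbp6 fell by 1.29 to 1.44. YAP and SRF targets were split, 9 of 24 higher and 7 lower. Ccn1 and Ccn2 rose by 0.86 ± 0.17 and 0.87 ± 0.27, zyxin, Zyx, fell by 1.42 and smooth muscle actin, Acta2, was 0.00 ± 0.40.

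Macrophage genes had the lowest median of the 44 lists. Of 22 measured markers 20 were lower, 19 at least 2-fold, and 1 higher, where 38.8% and 13.4% of all genes were lower, and their median change was -2.60. The mean signal of the list was 9.60, 8.68, 9.20 and 8.999 in the explants and 11.55 to 11.90 in vivo. In bulk tissue, fewer cells of a type and less RNA of these genes per cell cannot be told apart. The haemoglobin scavenger receptor Cd163 read 7.23, 6.15, 6.87 and 6.44 ex vivo and 11.49, 11.79 and 11.85 in vivo (lowest, median, highest), a change of -4.69 ± 0.17. The mannose receptor Mrc1 fell by 3.82, the transglutaminase F13a1 by 3.78, the C1q chain C1qc by 3.99, the surface receptor Adgre1 by 2.67 and the receptor Csf1r by 2.78. Not every marker went along. Cd68 was 0.19 ± 0.16 and not called, and Fcgr1, an Fc receptor that interferon induces, rose by 1.38 ± 0.21. Several of the 15 largest falls were of myeloid cell genes outside the list: the lectins Cd209g (-4.94 ± 0.10), Cd209f (-4.89 ± 0.08) and Cd209b (-4.67 ± 0.17), whose close paralogs share sequence, Clec4b1 (-4.69 ± 0.09), the scavenger receptor Fcrls (-4.73 ± 0.08), the ADP receptor P2ry12 (-4.995 ± 0.17) and Rgs18 (-4.68 ± 0.16). Among these 15 were also Pcdh20, a protocadherin (-5.22 ± 0.18), the amine methyltransferase Inmt (-4.76 ± 0.29) and the sphingomyelinase Smpd3 (-4.64 ± 0.52). Lyve1, carried by lymphatic endothelium and by perivascular macrophages, read 7.37, 7.17, 7.17 and 7.74 against 12.23, 12.38 and 12.52 in vivo (-4.62 ± 0.10).

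Class II antigen presentation was lower in 8 of 10 genes, all at least 2-fold. Counts here stand against 30.0% of all genes higher and 38.8% lower, or 9.02% and 13.4% by 2-fold. H2-DMa fell by 3.68, H2-Ab1 by 2.23, H2-Aa by 1.98 and Cd74 by 1.83, the lectin Cd209a by 3.14 and the master regulator Ciita by 2.02. H2-Aa read 10.71, 10.31, 11.21 and 11.03 ex vivo and 13.02, 13.19 and 13.29 in vivo (lowest, median, highest). The cathepsin Ctss rose slightly (0.52 ± 0.15). Complement genes were lower in 10 of 15, with properdin, Cfp, falling by 3.49 and C6 by 3.20, while factor B, Cfb, rose by 1.39 ± 0.08. Lymphocyte markers were lower in 11 of 14, among them Cd2 (-2.26) and the pan-leukocyte gene Ptprc (-2.07), and Il7r rose by 2.96 ± 0.19. Mast cell genes were lower in 5 of 10 and higher in 2, not far from the shares over all genes. Among them carboxypeptidase Cpa3 fell by 1.94 and the histamine enzyme Hdc rose by 1.80 ± 0.21. Neutrophil genes gave 7 of 13 higher and 4 lower, with a median of 0.25 and 2 changes of at least 2-fold in each direction. The granule genes Mpo, Ngp and Elane had ex vivo means of 3.92 ± 0.08, 4.68 ± 0.16 and 4.71 ± 0.19 (SD, n = 4), near the low end of the range, and do not stand for the whole list. Lcn2, the large riser of that list, is also made by stressed fibroblasts and epithelium. Which cells made these RNAs was not tested.

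**Figure D4:**
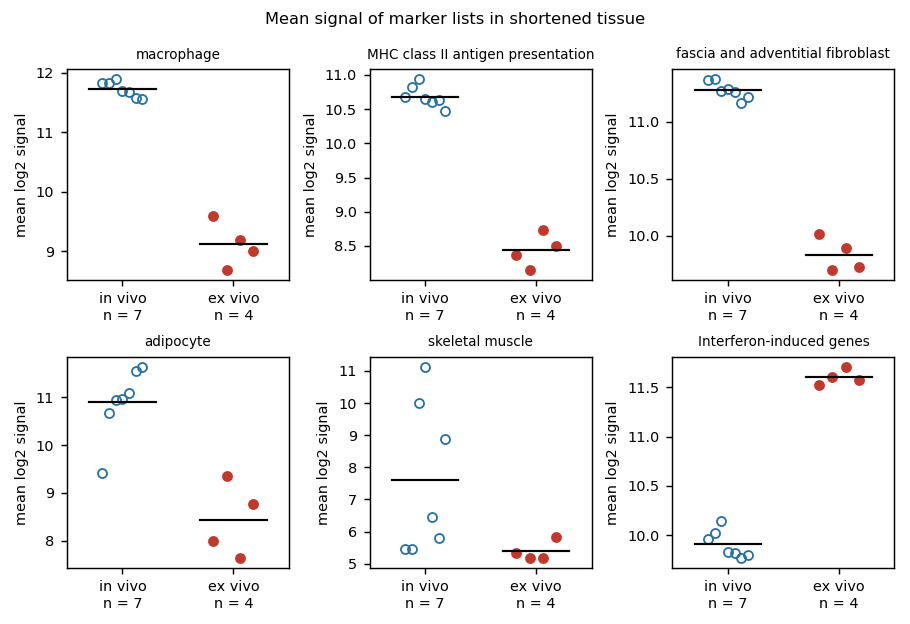
Mean deposited log2 signal (y axis) of 6 marker lists in each of the 11 shortened samples, with filled points for the 4 ex vivo and open points for the 7 in vivo samples and a bar for each group mean. Macrophage, class II and fibroblast means are all lower ex vivo and interferon means all higher; adipocyte means end at 9.36 ex vivo where in vivo means begin at 9.41 (relative to the median of all probes they overlap), and skeletal muscle means run from 5.17 to 5.82 ex vivo, overlapping the low end of the in vivo range of 5.44 to 11.13.

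Fibroblast genes were lower in 16 of 24 and higher in 4 (median -1.18), where 38.8% and 30.0% of all genes were. Cd248, a surface protein of fascia fibroblasts, fell by 3.47, from 12.35, 12.64 and 12.75 (lowest, median, highest) to 9.19, 8.66, 7.999 and 9.09. Thy1 fell by 2.92, Dpp4 by 2.64 and Pi16 by 1.97. The 4 members not called were Dcn (decorin, -0.09 ± 0.04), Prrx1 (0.03 ± 0.08), Twist1 (-0.01 ± 0.13) and Twist2 (0.02 ± 0.12), and Dcn was called without in vivo replicate 6 or 7, at -0.10 in both. The 4 higher members were the hyaluronan synthase Has1, given above, Pdgfrb (0.64 ± 0.16), Tcf21 (0.32 ± 0.09) and Pdgfra (0.36 ± 0.14). Pdgfra was 0.19 to 0.36 and not called without any one of 7 samples, and it turned negative without centring (-0.025), as did Tcf21. Dcn was bright in both settings, at 13.59 ± 0.07 ex vivo (SD, n = 4) and 14.07 ± 0.05 in vivo (SD, n = 7). It does not stand for the list, in which 14 of the 16 lower members fell at least 2-fold.

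Adipocyte markers were lower in 16 of 21, all by at least 2-fold, but varied from piece to piece. Of all genes 38.8% were lower, 13.4% by 2-fold. The lipogenic regulator Thrsp fell by 5.53, from 10.39, 11.90 and 13.19 (lowest, median, highest) to 4.87, 7.19, 5.90 and 6.27, and Pck1, which feeds glycerol synthesis, by 5.04. Leptin, Lep, fell by 3.16, Dgat2 by 3.56 and fatty acid synthase, Fasn, by 2.41. Adiponectin, Adipoq (-1.04 ± 0.45), and the fatty acid binding protein Fabp4 (-0.45 ± 0.32) were not called. Without in vivo replicate 1 both were, at -1.27 and -0.66, and Adipoq also was without ex vivo replicate 2 (-1.45) or 4 (-1.25). The list mean was 8.002, 9.36, 7.64 and 8.76 ex vivo and 9.41 to 11.63 in vivo. Skeletal muscle markers ranged from 5.44 to 11.13 in vivo and from 5.17 to 5.82 ex vivo. Of 27 markers 6 passed, all lower, among them Ryr1 (-3.50) and Myh2 (-3.28), a smaller share than the 38.8% of all genes that were lower. The list means of in vivo replicates 1 to 7 were 5.44, 5.46, 10.02, 11.13, 6.46, 5.81 and 8.89, so the in vivo pieces differed widely. Skeletal actin, Acta1, was -0.48 ± 1.47 and did not pass (2.60 and called with the muscle mean as a covariate, of which it is a part), nor did Myh4 at -3.13 ± 1.77.

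Vessel and nerve markers had medians nearer 0 than the macrophage, fat and muscle lists. All counts in this paragraph are to be read against the 30.0% higher and 38.8% lower of all genes. Endothelial genes gave 6 of 20 higher and 5 lower, with Pecam1 at 0.80 ± 0.25, Cdh5 at 0.92 ± 0.31 (0.69 without ex vivo replicate 2 and 0.83 without ex vivo replicate 4, neither called), Tek falling by 2.15 and Emcn rising by 1.57 ± 0.25. Only 2 of 13 pericyte and vascular muscle genes were higher and 2 lower. Of 11 Schwann cell genes 2 were lower and none higher, with Mbp at -0.16 ± 0.17 and Sox10 at 0.34 ± 0.23, which did not pass, and no change of 2-fold. Red blood cell genes were lower in 5 of 7, such as Bpgm (-1.76), and keratinocyte genes gave 5 of 14 higher and 5 lower, with ex vivo list means of 4.94 to 5.10.

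Genes that circulating hormone and the daily rhythm govern went both ways, in shares not far from the 30.0% higher and 38.8% lower of all genes. Of 18 glucocorticoid-induced genes 8 were lower and 7 higher. The largest falls were those of Zbtb16 (-2.54), Tsc22d3 (GILZ, -2.45), Ddit4, given above, and Fkbp5 (-1.34). Tsc22d3 fell from 9.21, 9.74 and 10.04 (lowest, median, highest) to 7.39, 6.73, 7.14 and 6.05. The largest rises were those of Lcn2, Cdkn1a and Mt2, given above, and the glutamine synthetase Glul rose by 0.79 ± 0.10. Clock genes were lower in 7 of 17 and higher in 5. The activator Arntl fell by 1.45, and the repressors Cry1, Per2 and Bhlhe40 rose by 1.21 ± 0.26, 0.95 ± 0.25 and 1.83 ± 0.17. Sampling times are not in the labels. Sterol synthesis genes were lower in 7 of 17 and higher in 1, a share of lower genes near the 38.8% of all genes, with Hmgcs1 falling by 1.26.

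The stretched pieces of the same animals gave a second reading of the setting. Of 2777 genes called at 2-fold in shortened tissue, 2711 were called in the same direction in stretched tissue. The 2 readings come from the same animals and arrays of the same sets, so they are not independent. The change between settings differed with stretch at 366 probes of 22626 (adjusted p under 0.05 for the interaction, limma with the animal as a random block; 3484 at an unadjusted p under 0.05). Oxygen response genes were among them. Egln3 changed by 5.33 ± 0.21 in shortened and 3.85 ± 0.31 in stretched pieces (adjusted p of the difference = 0.0266), Ero1a by 3.79 ± 0.12 and 2.63 ± 0.13 (adjusted p = 0.00484), Hilpda by 4.32 ± 0.15 and 3.34 ± 0.14 (adjusted p = 0.00555) and Vegfa by 1.902 ± 0.20 and 0.94 ± 0.22 (adjusted p = 0.0245). The median of the 30 genes was 1.65 in shortened and 1.02 in stretched pieces. Lyve1 and Cd163 fell further in stretched pieces, to changes of -6.32 ± 0.25 (adjusted p = 0.000691) and -5.52 ± 0.15 (adjusted p = 0.0223). In 3 of the largest risers the difference did not pass: the interaction of Cxcl5 had adjusted p = 0.207, that of Il6 0.796 and that of Serpinb2 0.208.

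**Figure D5:**
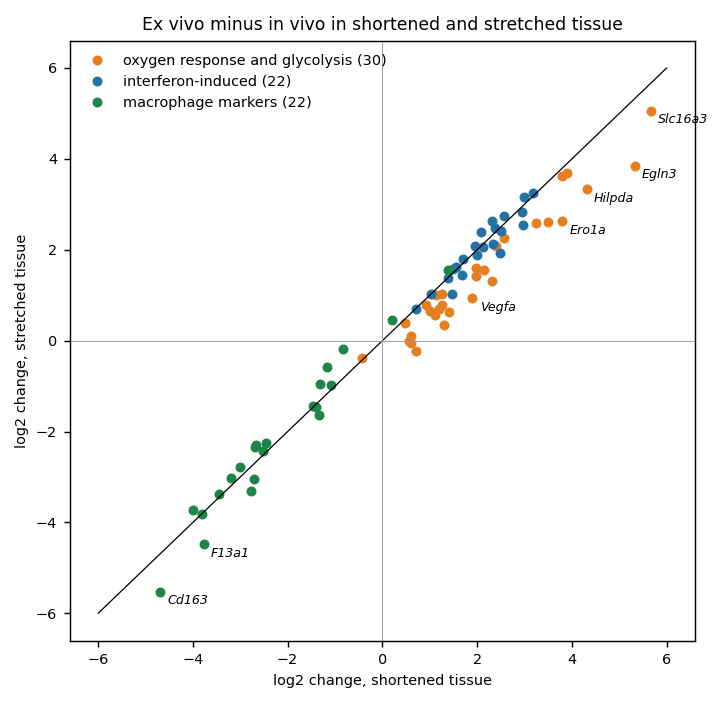
Log2 change, ex vivo minus in vivo and relative to the median of all probes, in shortened (x axis) and stretched pieces (y axis) for the 30 oxygen response and glycolysis genes (orange), the 22 interferon-induced genes (blue) and the 22 macrophage markers (green), with the line of equal change. Most orange points lie below the line, Egln3 at 5.33 and 3.85 among them, while blue points lie along it.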

How the data were processed

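Tissue RNA was measured on Affymetrix arrays. The deposited log2 values are RMA signals made by the authors with affy, per the submitters' processing notes, which give no version used here; whether the settings were processed together is not given in the sources used here. Of 22690 probes 64 controls were left out. Symbols came from the platform annotation and were updated through the gene ID for 20351 of 20380 probes with 1 symbol; 691 probes with several and 1555 with none were tested but not named. A gene is represented by its brightest probe over the 11 samples. The ex vivo values were shifted by the median probe difference and tested with limma 3.58.1 in R 4.3.3 (lmFit, eBayes with a mean-variance trend, Benjamini-Hochberg over 22626 probes, threshold 0.05); the fit was tested on simulated data. The table holds no detection calls, so dim signals may be background.

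The members, the 44 gene lists (807 measured genes, 28 in more than 1 list), the tests and the alternatives were chosen with earlier results of these data known, and the interferon promoter letters after seeing the values. Named genes are the 15 largest changes in each direction among called genes whose groups do not overlap, leaving out names that are clone or model numbers, plus the list members of smallest p and those needed to describe roles in order. Fn1, Glul, Tcf21 and Twist2 were added after their values were seen. Promoters are RefSeq's, 250 bases before to 50 after the start. Control-probe differences were tested by exact permutation, and the setting by stretch interaction with the animal as a random block in limma. Alternatives changed the centring, normalization, probe filters, variance model, weights, threshold, probe choice, samples and covariates.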

Additional observations from a re-analysis of the deposited data

Results flagged for a closer look

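In 148 groups of values a sample was set against the others of its group, and 6 had a sample far from the rest. That is no more than the about 1 in 20 that chance gives, so the samples below are listed only. Ex vivo replicate 3 stood above the other explants in the mean signal of 3 lists: 10.76 for interferon-induced CXC chemokines and the CXCL12 family (others 10.35 to 10.37), 9.35 for the IL-6 family and other cytokines (8.91 to 8.94), and 9.64 for the IL-1 family and NF-kB feedback (9.03 to 9.12). Ex vivo replicate 2 read 11.12 for the stress factor Ddit3 (others 10.04 to 10.17). In vivo replicate 1 read 11.49 for Cd163 (others 11.70 to 11.85), and in vivo replicate 6 read 4.21 for Slc7a11 (others 3.73 to 3.91).

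For 17 named genes the change between settings differed with stretch (limma interaction, adjusted p under 0.05). Differences are log2, the change in stretched minus that in shortened pieces. Among oxygen response genes the difference was -1.48 for Egln3, -1.16 for Ero1a, -0.98 for Hilpda, -0.97 for Vegfa, -0.60 for Slc16a3 and -0.37 for Pgam1, each a smaller rise in stretched tissue. The chaperone Hspa5 also rose less, by -0.42. Falls were deeper in stretched tissue for Lyve1 (-1.70), Cpa3 (-0.96), Cd163 (-0.84), F13a1 (-0.71) and Lama2 (-0.65). They were shallower for Igfbp3 (0.94), Loxl1 (0.89), Bmp4 (0.79) and Klf2 (0.52), and Ptgis rose more (0.65).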

How the results depend on the processing

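The 5 counts of calls stayed within 1.5 times under all but 3 alternatives, and leaving out each sample in turn gave 14222 to 15490 probes called, 3484 to 3728 genes higher, 4522 to 4934 lower, 1089 to 1145 higher by 2-fold and 1617 to 1732 lower by 2-fold. With the settings not centred on each other 1935 genes were higher, 7579 lower, 619 higher by 2-fold and 2976 lower by 2-fold. With brighter probes only, which tests fewer probes, 8156 probes were called, 2310 genes were higher, 2795 lower and 998 lower by 2-fold. With 2-fold as a further condition 4998 probes, 1118 higher and 1659 lower genes were called. The 3' minus 5' difference of Gapdh ranged from -1.74 to -1.26 and that of Actb from -0.31 to -0.07 as each sample was left out; the Gapdh difference passed the exact permutation test without in vivo replicate 1, 2 or 3.

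Of 252 named genes the direction turned in 7 without centring (Calr -0.31, Ngp -0.27, Pdgfra -0.025, Prrx1 -0.35, Tcf21 -0.066, Twist2 -0.36, Xbp1 -0.14), in 4 with the mean of all probes (Cxcl12 -0.044, Il6st 0.96, Plau 0.026, Xbp1 -0.070), in 2 in stretched pieces (Ccn2 -0.11, Il6st 0.12) and in Acta1 with the muscle covariate (2.60). The cause was not tested. List medians moved by more than the spread of the list mean between samples in 42 of 44 lists without centring, where 5 changed sign and the respiratory median was -0.91, in 19 in stretched pieces, in 16 with brighter probes only, in 15 each with the mean of all probes and with probes of a mean of at least 6, and in 12 or fewer under each other alternative. Same-numbered samples of the settings came from different animals, and their deviations from the group means correlated at 0.07, 0.03, -0.05 and 0.10, so the numbers were not taken as pairs; with the replicate block 13990 probes were called, 3515 genes higher, 4285 lower, 1170 higher by 2-fold and 1636 lower by 2-fold.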
